A study of Mus musculus with 6 samples.

Results

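The cell cycle and replication genes are a list of 42 mouse genes that code for the machinery of cell division, and each was found by its official symbol in the authors' unfiltered gene table. Of the 42 genes, 40 have a row there, and Mcm4 and Nusap1 are not analysed here. Among these 40, the rows of Bub1b and Mcm3 were set aside because their library values miss the authors' own group means, so 38 of the 13042 genes tested belong to the list. By role, 9 of 11 listed genes of DNA replication and nucleotide supply, all 12 of the control of G1 and S phase entry, and 17 of 19 of G2, mitosis and the late cycle were tested.

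The libraries come from the mouse spinal cord injury site after a contusion at the T8 level, with 3 libraries at 7 days after injury and 3 at 3 days. Both groups share genotype and strain: the labels give LysMCre:Rplfl/fl > CD45.1 chimeras, strain CD45.1, and the series' design text names the cells macrophages. In the RiboTag method a Cre-dependent epitope tag is placed on a ribosomal protein, so that RNA on ribosomes of Cre-expressing cells can be pulled down with an antibody, and LysM-Cre is active in macrophages, monocytes and neutrophils and in some microglia. Age, sex, how the chimeras were made and whether each library is a separate animal are not stated in the labels, so p-values here speak only to how these libraries vary, which may be technical. For the same reason it is not known here whether resident microglia carried the tag in these chimeras. No uninjured cord and no input RNA were analysed here, and every comparison is between the 2 times.

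Cell division starts in G1, when D-type cyclins bind Cdk4 and Cdk6 and begin to phosphorylate the retinoblastoma proteins that hold E2F factors in check. Freed E2F drives genes of S phase, among them the Mcm proteins of the replicative helicase, the sliding clamp Pcna and the enzymes that make deoxynucleotides. A later group of genes, with Cdk1, the B-type cyclins, Aurora and Polo kinases and kinetochore proteins, carries cells through G2 and mitosis, and many of its promoters hold CCAAT boxes and a cell cycle homology region (CHR), through which the DREAM complex keeps them silent in resting cells. The inhibitors of the CIP/KIP family (Cdkn1a, Cdkn1b) and the INK4 family (Cdkn2c) restrain cyclin-dependent kinases. After cord injury, macrophages at the lesion come from blood monocytes and from resident microglia, and cells of both kinds can divide.

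Most promoters of the mitosis genes held the same pair of motifs. The RefSeq promoter table (build GRCm38.p6) gives for each gene a window of 300 bases, 250 before and 50 after the annotated start, and it holds 35 of the 42 genes, 4 of them with several windows, any of which counted. Ccna2, Ccnd1, Ccnd2, Ccne2, Aurkb, Mcm4 and Kif20a have no entry. Both strands were searched for the CHR as TTTGAA or its variant TTCGAA, and for CCAAT. An E2F core was searched in 4 spellings: TTCCCGC was the first, with TTGGCGC as the second, then TTCGCGC as the third and finally TTGCCGC as the fourth. Matches of different motifs may overlap. A CHR match was present in 12 of 16 mitosis genes (75.0%) and in 2 of 10 replication genes, against 21.7% of all 27025 symbols in the table, expressed here or not, and 16.3% of the 9071 tested genes found in it. CCAAT was present in 14 of 16 mitosis genes (87.5%) and 8 of 10 replication genes (80.0%), against 41.1% of all symbols and 42.8% of those tested genes. The same 12 mitosis genes held both motifs, a combination found in 8.61% of all symbols and 6.88% of those tested genes, and the other 4 lacked the pair. An E2F core was present in 6 of 10 replication genes and 3 of 16 mitosis genes (18.8%), against 10.9% of all symbols and 19.3% of those tested genes, so the mitosis share did not exceed that of the tested genes. Among the 9 of 12 G1 and S entry genes with an entry, CHR was present in 0, CCAAT in 4 (44.4%) and an E2F core in 2 (22.2%). These shares say little of the D cyclins, because 2 of the 3 have no entry. The next 4 windows, given 5′ to 3′ on the strand of the gene with every match in capitals, show the motifs in 2 mitosis genes whose levels did not pass the test for a difference between the times, and in 2 replication genes that differ in what they hold. Ccnb2 lies on the minus strand of chromosome 9 (window 70421505 to 70421804), Cdk1 on that of chromosome 10 (69352863 to 69353162), Mcm6 on that of chromosome 1 (128359656 to 128359955) and Pcna on that of chromosome 2 (132253131 to 132253430).
Ccnb2: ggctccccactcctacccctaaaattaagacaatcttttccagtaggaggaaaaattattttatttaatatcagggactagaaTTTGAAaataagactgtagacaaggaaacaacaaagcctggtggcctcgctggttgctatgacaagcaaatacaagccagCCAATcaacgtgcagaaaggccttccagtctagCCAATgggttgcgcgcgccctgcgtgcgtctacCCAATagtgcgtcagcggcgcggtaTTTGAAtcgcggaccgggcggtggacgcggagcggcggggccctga
Cdk1: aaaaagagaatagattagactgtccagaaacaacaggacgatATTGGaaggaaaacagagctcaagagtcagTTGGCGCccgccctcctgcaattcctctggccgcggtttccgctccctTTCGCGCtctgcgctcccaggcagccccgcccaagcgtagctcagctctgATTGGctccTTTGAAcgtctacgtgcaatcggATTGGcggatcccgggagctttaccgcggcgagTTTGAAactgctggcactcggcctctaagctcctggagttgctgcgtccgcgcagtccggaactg
Mcm6: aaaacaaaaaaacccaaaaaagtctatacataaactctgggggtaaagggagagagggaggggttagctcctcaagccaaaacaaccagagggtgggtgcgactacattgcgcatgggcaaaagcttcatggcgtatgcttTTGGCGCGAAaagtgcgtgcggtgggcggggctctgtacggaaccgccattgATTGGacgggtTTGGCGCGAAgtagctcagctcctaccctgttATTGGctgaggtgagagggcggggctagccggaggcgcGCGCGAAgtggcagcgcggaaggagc
Pcna: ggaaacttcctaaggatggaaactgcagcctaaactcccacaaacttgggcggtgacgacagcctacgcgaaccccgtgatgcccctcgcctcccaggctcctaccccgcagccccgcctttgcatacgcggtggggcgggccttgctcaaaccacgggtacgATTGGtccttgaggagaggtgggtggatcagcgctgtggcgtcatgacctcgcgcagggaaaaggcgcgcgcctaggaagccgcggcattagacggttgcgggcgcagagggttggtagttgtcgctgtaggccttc
In Ccnb2, 3 CCAAT matches began 87, 54 and 21 bases before the start and 2 CHR matches 167 bases before it and at base 5 after it. In Cdk1, 2 CHR matches (71 and 15 bases before the start), 3 CCAAT matches and 2 E2F matches were found. Mcm6 held 5 E2F matches, some of them overlapping on opposite strands, with 2 CCAAT matches and no CHR, and the window of Pcna held 1 CCAAT match and neither of the other motifs. A match is a description of letters, not a binding site, and a missing match says only that these letters are not in the window.

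The tested genes at 1 FPKM (fragments scaled to transcript length and library size) or more numbered 10248 to 10402 per library at 7 days and 11147 to 11675 at 3 days, and total read numbers are unknown. Marker sums cover only the tested markers of each list, 6 of 10 for macrophages, and are not comparable between cell types. Macrophage markers summed to 1208 to 1270.0 FPKM per library at 7 days and 1153 to 1319 FPKM at 3 days, with 3 of 6 tested markers higher and 2 lower. Microglia markers summed to 2062 to 2278 FPKM at 7 days and 664 to 843 FPKM at 3 days, with 3 of 4 tested markers higher. Inflammatory monocyte markers summed to 167 to 203 FPKM at 7 days and 429 to 506 FPKM at 3 days, and 3 of 4 tested markers were lower at 7 days. Markers of cells outside the LysM lineage were present at both times, and at 7 days 4 of 4 neuron, 5 of 5 oligodendrocyte lineage, 3 of 4 astrocyte, 4 of 5 endothelial, 3 of 5 fibroblast and pericyte and 4 of 4 erythroid markers were lower. Neuron marker sums were 24.0 to 30.9 FPKM at 7 days and 97.3 to 220 FPKM at 3 days, astrocyte sums 85.6 to 107 and 175 to 513 FPKM, and oligodendrocyte lineage sums 59.0 to 69.3 and 132 to 324 FPKM. Endothelial sums were 15 to 16.8 FPKM at 7 days and 35.8 to 57.1 FPKM at 3 days, fibroblast and pericyte sums 96.6 to 177 and 100.2 to 252 FPKM, and erythroid sums 15.9 to 22.4 and 164 to 213 FPKM. Neutrophil markers summed to 31.2 to 49.0 FPKM and 48.3 to 53.2 FPKM, with 1 of 6 higher and 1 lower. The single T and NK cell marker tested was not called, with at most 1.17 FPKM at 7 days and 0.144 FPKM at 3 days. B cell markers summed to 2.84 to 3.48 FPKM at 7 days and 0.631 to 1.32 FPKM at 3 days, with the 1 tested marker higher. Replicate 2 at 3 days held the highest sum of neuron, astrocyte, oligodendrocyte lineage, endothelial and fibroblast markers. Mpo, Cd3g and Lyz2 are listed at 0 in at least 1 library.

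Few cell cycle genes outside the G1 group passed the test between the times. At 7 days 3 of the 38 genes were higher (Pcna, Cdkn1b and Cdkn2c) and 5 were lower (Ccnd1, Ccnd2, Ccnd3, Cdkn1a and Mcm7). These shares, 7.89% higher and 13.2% lower, stand beside 18.8% higher and 20.3% lower among all 13042 genes tested. Calls were made with limma on log2(FPKM + 1), at a Benjamini-Hochberg adjusted p of 0.05 or less over all genes, and changes are 7 days minus 3 days. In either direction 8 of 38 genes were called (21.1%), against 39.1% of all genes tested and 42.1% of the 11073 with a mean of 1 FPKM or more. Over all genes 2453 were higher and 2645 lower, and without replicate 2 at 7 days 1572 and 1697. The 8 called genes comprise 6 of 12 in the G1 group, 2 of 9 in the replication group and 0 of 17 in the mitosis group. The authors' deposited table, read at its own q-value of 0.05 or less, gives 3 of the 38 genes higher and 4 lower, against 17.8% higher and 20.7% lower of all genes (38.4% in either direction), and again 0 of the 17 mitosis genes. The libraries of the 2 times did not overlap for 4 of the 38 genes that lay above and 7 that lay below at 7 days, or 11 in all (28.9%), against 26.8%, 28.6% and 55.4% of all genes.

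**Figure D1:**
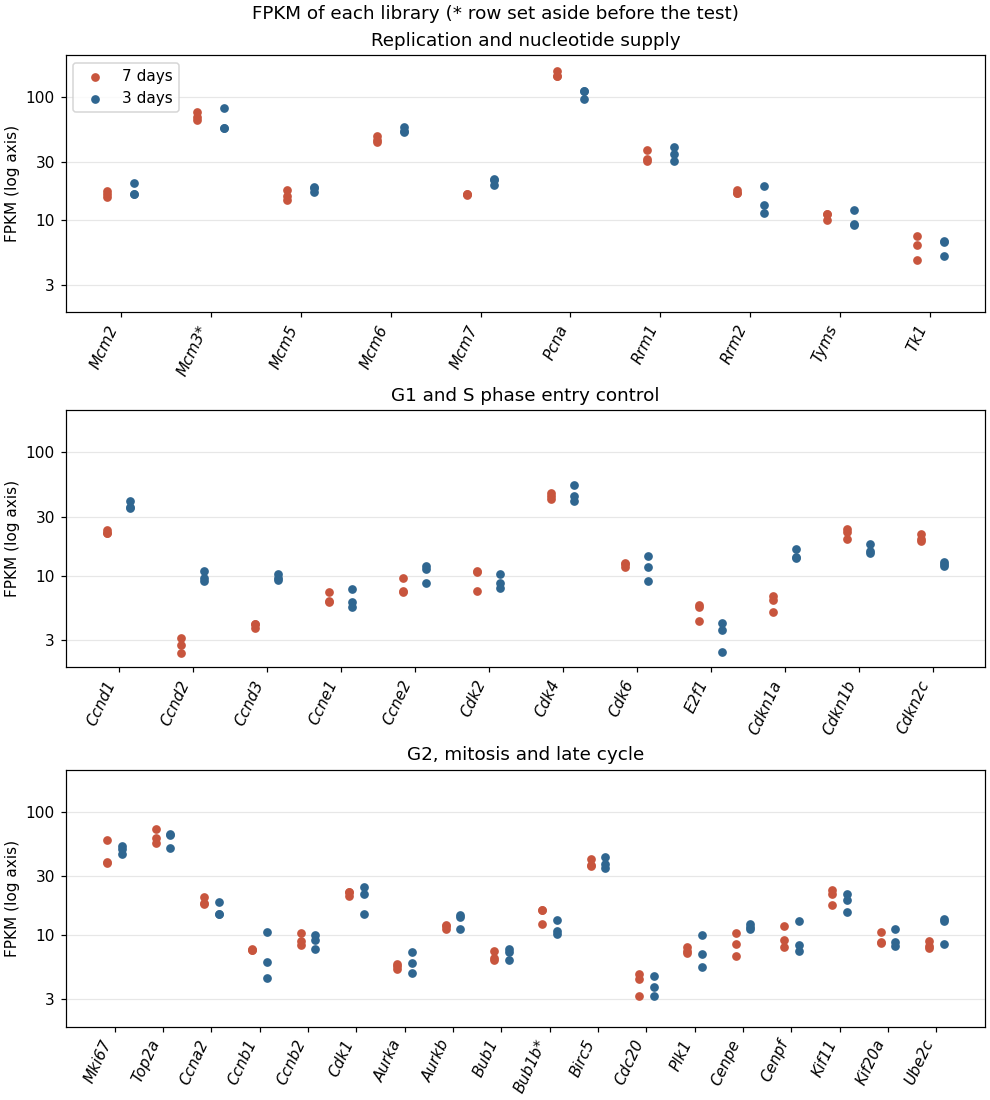
FPKM (log axis) of each library for the 40 genes with a row, in 3 panels by role, with 7 days left of 3 days for each gene and an asterisk on the 2 rows set aside. The D cyclins and Cdkn1a lie lower at 7 days with no overlap, Pcna and Cdkn2c lie higher, and the mitosis genes overlap apart from Cenpe.

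**Figure D2:**
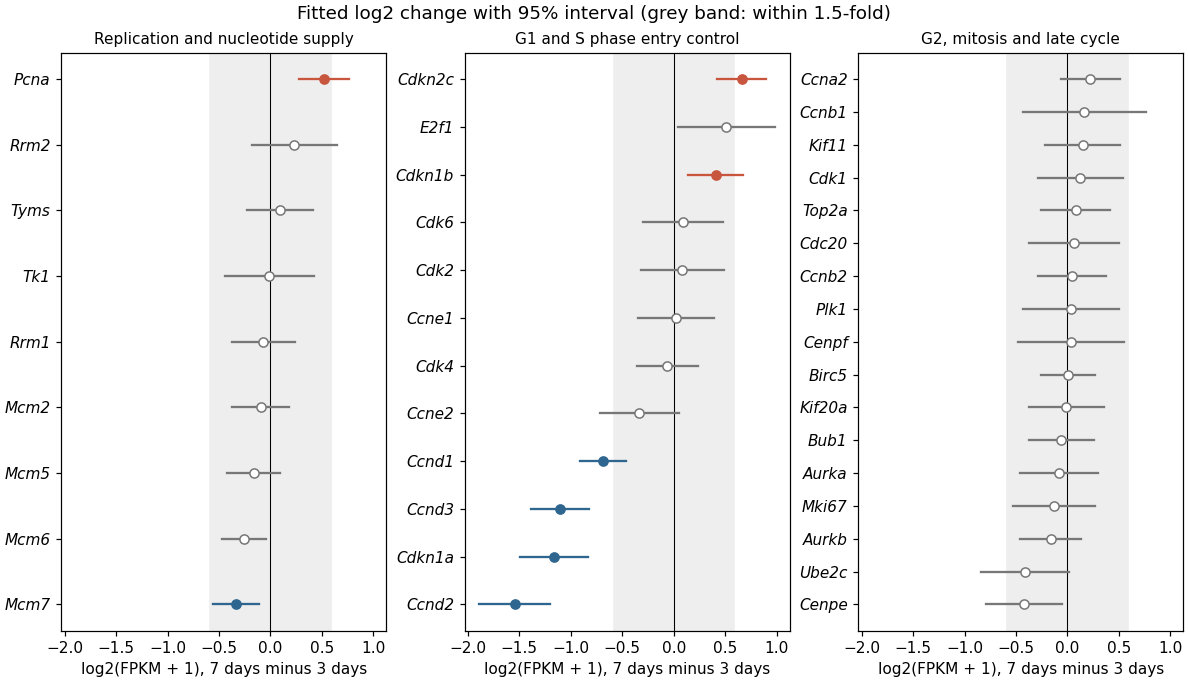
Fitted change of log2(FPKM + 1), 7 days minus 3 days, with its 95% interval for the 38 tested genes in 3 panels by role. Filled points passed the test, and the grey band spans 1.5-fold of FPKM + 1 in either direction. In the mitosis panel no point is filled, and 14 of 17 intervals lie inside the band.

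All 3 D-type cyclins, the regulatory subunits that activate Cdk4 and Cdk6 in G1, fell at 7 days. Ccnd2 (cyclin D2; chromosome 6, 127125086 to 127151071, mm10) had 3.13, 2.71 and 2.35 FPKM at 7 days, against 9.58, 10.9 and 9.11 FPKM at 3 days. Its log2 change was −1.55 ± 0.15 (SE; limma adjusted p = 0.000624), and the ratio of its mean FPKM was 0.276. Every 7-day library lay below every 3-day library, and the same held for the other two D cyclins. Ccnd3 (cyclin D3; chromosome 17, 47505074 to 47611484) had 4.05, 4.02 and 3.78 FPKM at 7 days, against 9.53, 9.23 and 10.2 FPKM at 3 days, a log2 change of −1.10 ± 0.12 (limma adjusted p = 0.000976). Ccnd1 (cyclin D1; chromosome 7, 144929930 to 144939901) had 22.2, 22.2 and 23.6 FPKM at 7 days, against 40.1, 35.3 and 35.9 FPKM at 3 days, a log2 change of −0.69 ± 0.09 (limma adjusted p = 0.00204). The 3 D cyclins together summed to 29.3 ± 0.398 FPKM at 7 days and 56.7 ± 2.25 FPKM at 3 days (n = 3 each, ± SD). In their mix, given with no test, Ccnd1 made up 77.2 ± 1.96% of the sum at 7 days and 65.5 ± 2.09% at 3 days, and Ccnd2 9.31 ± 1.37% and 17.5 ± 1.97%, with no overlap between the times for either share.

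These bulk samples are pull-downs of RNA on ribosomes, with no input RNA analysed. Fewer cells of a type, less RNA per cell and a smaller share of it on ribosomes therefore cannot be told apart. The D cyclins are widely expressed, and most of the tested neuron, glial, endothelial and monocyte markers counted above were also lower at 7 days, while 3 of 4 tested microglia markers were higher. Among them Aqp4, Kdr and Ccr2 were not called lower, and the microglia marker Sall1 was not called, with a log2 change of −0.64. Their part in the D cyclin result was not tested. Without replicate 2 at 3 days, the library with the highest neural and endothelial marker sums, the log2 changes were −0.72 for Ccnd1, −1.48 for Ccnd2 and −1.13 for Ccnd3 (limma adjusted p = 0.00562, 0.0039 and 0.00416). The other 3-day libraries still had neuron marker sums of at least 97.3 FPKM, against at most 30.9 FPKM at 7 days. That fit therefore cannot tell the part of other cells. Ccnd3 shares its locus in the authors' table with Bysl, which changed by −0.52 ± 0.13, so reads of these 2 genes may have been split and the value of Ccnd3 is uncertain.

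The kinases that the D cyclins activate did not pass the test. Cdk4 averaged 44.3 ± 2.80 FPKM at 7 days and 46.6 ± 7.35 FPKM at 3 days, and Cdk6 averaged 12.3 ± 0.424 FPKM and 11.7 ± 2.71 FPKM (mean ± SD of 3 libraries). Their sum was 56.6 ± 2.76 FPKM at 7 days and 58.3 ± 8.43 FPKM at 3 days. The 95% interval of the log2 change lay between −0.36 and 0.24 for Cdk4 and between −0.30 and 0.48 for Cdk6. Cdk4 shares its locus with Tspan31, which had a log2 change of 0.41 ± 0.16 and was not called, so the value of Cdk4 is uncertain. Cdk2, the partner of the E cyclins, averaged 9.64 ± 1.92 FPKM and 8.96 ± 1.14 FPKM (log2 change 0.09 ± 0.17). Ccne1 averaged 6.55 ± 0.724 FPKM at 7 days and 6.45 ± 1.15 FPKM at 3 days, and Ccne2 8.17 ± 1.27 FPKM and 10.6 ± 1.74 FPKM (log2 change −0.34 ± 0.16, limma adjusted p = 0.139). The value of Ccne2 is also uncertain, because its locus is shared with Ints8, a gene that was not tested. E2f1, the activator of S phase genes, had 4.25, 5.72 and 5.58 FPKM at 7 days, against 4.15, 2.38 and 3.60 FPKM at 3 days. Its libraries did not overlap, but the gap between the nearest was small and its log2 change of 0.51 ± 0.20 missed the threshold (limma adjusted p = 0.0814), whereas the authors' deposited table calls it (q = 0.012).

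The inhibitors went in different directions. Cdkn1a (p21, a target of the p53 protein; chromosome 17, 29091011 to 29100720) fell, with 5.07, 6.31 and 6.86 FPKM at 7 days, against 13.8, 14.2 and 16.4 FPKM at 3 days. The log2 change was −1.16 ± 0.14 (limma adjusted p = 0.00135). Cdkn2c (p18INK4c, an inhibitor of Cdk4 and Cdk6; chromosome 4, 109660767 to 109666774) rose, with 19.2, 21.8 and 19.7 FPKM at 7 days, against 11.99, 12.8 and 12.4 FPKM at 3 days, a log2 change of 0.66 ± 0.10 (limma adjusted p = 0.00301). For both genes the libraries of the 2 times were well apart. Cdkn1b (p27, the inhibitor that accumulates in resting cells; chromosome 6, 134920381 to 134925513) had 23.7, 19.8 and 22.4 FPKM at 7 days, against 17.9, 15.8 and 15.1 FPKM at 3 days. It rose by a log2 change of 0.41 ± 0.11 (limma adjusted p = 0.0280), but the call was lost under 6 of 13 alternatives, 4 of them the removal of 1 library (replicates 1 or 3 at 7 days, 2 or 3 at 3 days; adjusted p 0.0608 to 0.0962). The 3 D cyclins, Cdkn1a, Cdkn2c and Pcna were called under all 13.

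Among replication genes, the clamp rose and 1 helicase subunit fell. Pcna, the ring that holds DNA polymerases on their template (chromosome 2, 132249083 to 132253197), had the highest level of all 38 genes, with 148, 149 and 162 FPKM at 7 days, against 95.7, 111 and 112 FPKM at 3 days. It rose by a log2 change of 0.52 ± 0.10 (limma adjusted p = 0.00779), with every 7-day library above every 3-day library. The 4 tested subunits of the Mcm2 to Mcm7 ring, which unwinds DNA at the fork, had fitted log2 changes of −0.33 to −0.09, where that of Mcm2 was 0.00 without replicate 2 at 3 days. Of these only Mcm7 (chromosome 5, 138161088 to 138171883) was called lower, with 16.0, 16.3 and 16.3 FPKM at 7 days, against 21.5, 21.3 and 19.3 FPKM at 3 days (log2 change −0.33 ± 0.10, limma adjusted p = 0.0303). That call was lost under 8 of 13 alternatives, among them the removal of each library except replicate 3 at 3 days (adjusted p 0.0517 to 0.0906), and the authors' deposited table gives q = 0.264. Mcm7 shares its locus with Cops6, which had a log2 change of −0.32 ± 0.14 and was not called, so its value is uncertain.

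Mcm6 had 44.6, 48.0 and 42.9 FPKM at 7 days, against 52.0, 52.9 and 57.1 FPKM at 3 days, without overlap (log2 change −0.25 ± 0.09, limma adjusted p = 0.0609). The ratio of Pcna to Mcm6, taken within each library, was 3.31, 3.11 and 3.79 at 7 days, against 1.84, 2.10 and 1.97 at 3 days. This ratio is given with no test, and none was taken with the other Mcm genes, so its separation may depend on the choice of Mcm6. Mcm2, another helicase subunit (chromosome 6, 88889003 to 88912234), had 17.3, 15.3 and 16.4 FPKM at 7 days, against 16.4, 20.1 and 16.2 FPKM at 3 days. The Mcm2 libraries overlapped, and the log2 change was −0.09 ± 0.12 (limma adjusted p = 0.546). Its locus is shared with Tpra1, which was called higher with a log2 change of 0.95 ± 0.10. The value of Mcm2 is therefore uncertain. Mcm5 averaged 16.0 ± 1.59 FPKM and 18.0 ± 0.949 FPKM (log2 change −0.16 ± 0.11).

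Enzymes of nucleotide supply did not pass the test. Rrm1 and Rrm2 are the large and small subunits of ribonucleotide reductase, which makes deoxynucleotides. Rrm1 averaged 33.0 ± 3.68 FPKM at 7 days and 34.7 ± 4.70 FPKM at 3 days. Rrm2 had 16.6, 17.5 and 16.8 FPKM at 7 days, against 11.4, 19.2 and 13.3 FPKM at 3 days, so its 3-day libraries lay on both sides of the 7-day ones. The Rrm2 log2 change was 0.23 ± 0.18, and 0.43 without replicate 2 at 3 days (limma adjusted p = 0.319 and 0.0298). Tyms, which makes thymidylate, averaged 10.9 ± 0.639 FPKM and 10.2 ± 1.64 FPKM, and Tk1, thymidine kinase, 6.19 ± 1.37 FPKM and 6.19 ± 0.898 FPKM. The Tyms locus in the authors' table covers 33.2% of the RefSeq gene span, and Tk1 shares its locus with Afmid.

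None of the 17 tested mitosis genes was called by limma or by the authors' q-value. At an unadjusted p of 0.05 or less limma gives 1 of 17, Cenpe, against 50.0% of all genes. Mki67 (Ki-67, the marker of cycling cells that coats mitotic chromosomes; chromosome 7, 135689783 to 135716389) had 59.2, 39.4 and 38.4 FPKM at 7 days, against 52.4, 49.5 and 45.6 FPKM at 3 days. Replicate 1 at 7 days was the highest and the other two 7-day libraries the lowest of the 6, and the log2 change was −0.13 ± 0.17 (limma adjusted p = 0.558). Leaving out 1 library gave Mki67 log2 changes from −0.33 without replicate 1 at 7 days (limma adjusted p = 0.0772) to −0.02 without replicate 3 at 7 days, and quantile normalization gave −0.37 (adjusted p = 0.139). Top2a (topoisomerase IIα, which untangles sister chromatids; chromosome 11, 98992918 to 99024203) had 72.9, 56.3 and 61.4 FPKM at 7 days, against 65.6, 64.3 and 50.4 FPKM at 3 days. Its libraries interleaved, with a log2 change of 0.08 ± 0.14 (limma adjusted p = 0.668). Cdk1, the kinase that drives entry into mitosis (chromosome 10, 69338301 to 69352939), had 20.8, 22.5 and 22.4 FPKM at 7 days, against 14.9, 24.7 and 21.5 FPKM at 3 days. Here the 7-day libraries lay within the wider 3-day range, and the log2 change was 0.13 ± 0.18 (limma adjusted p = 0.582).

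Partners and later regulators of Cdk1 did not pass the test either. Ccna2, the S and G2 phase cyclin, averaged 18.9 ± 1.34 FPKM at 7 days and 16.1 ± 2.13 FPKM at 3 days (log2 change 0.22 ± 0.12), in a locus shared with Exosc9, which was called higher. The B cyclins, which complete the mitotic kinase, averaged 7.60 ± 0.131 FPKM and 7.05 ± 3.16 FPKM for Ccnb1, and 9.21 ± 1.08 FPKM and 8.90 ± 1.11 FPKM for Ccnb2. The Ccnb1 locus covers 17.7% of its RefSeq span, and its 3-day libraries ranged more than 2-fold, with 4.52, 10.6 and 6.06 FPKM. Aurka (spindle poles) averaged 5.57 ± 0.288 FPKM and 6.02 ± 1.22 FPKM. Aurkb and Birc5 are members of the chromosomal passenger complex. Aurkb averaged 11.7 ± 0.515 FPKM and 13.2 ± 1.75 FPKM, and Birc5 38.4 ± 2.87 FPKM and 38.4 ± 4.30 FPKM, a log2 change of 0.00 with a 95% interval of −0.26 to 0.27. Plk1, the Polo kinase, averaged 7.50 ± 0.469 FPKM at 7 days and 7.48 ± 2.29 FPKM at 3 days. Cdc20, the activator of the anaphase-promoting complex, averaged 4.13 ± 0.842 FPKM and 3.89 ± 0.715 FPKM, and Bub1, a spindle checkpoint kinase, 6.72 ± 0.577 FPKM and 7.05 ± 0.720 FPKM.

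The mitotic motors and kinetochore proteins held the lowest estimate of the group. Cenpe, the kinetochore motor (chromosome 3, 135230074 to 135273514), had 10.4, 6.81 and 8.44 FPKM at 7 days, against 12.3, 11.1 and 11.5 FPKM at 3 days. It is the only mitosis gene whose times did not overlap. Its log2 change was −0.42 ± 0.16 (unadjusted p = 0.0312, limma adjusted p = 0.0708). Ube2c, the ubiquitin-conjugating enzyme of the anaphase-promoting complex, had 8.19, 7.82 and 8.89 FPKM at 7 days, against 8.38, 13.4 and 13.0 FPKM at 3 days (log2 change −0.41 ± 0.18, limma adjusted p = 0.110). Without replicate 1 at 3 days it was called (adjusted p = 0.0135), and Cenpe was called without replicate 1 at 7 days (adjusted p = 0.0391). Cenpf, a kinetochore protein, averaged 9.68 ± 1.97 FPKM and 9.56 ± 2.90 FPKM. Kif11, which pushes spindle poles apart, averaged 20.7 ± 2.92 FPKM and 18.6 ± 3.04 FPKM. Kif20a, a motor of cytokinesis, averaged 9.30 ± 1.14 FPKM and 9.40 ± 1.65 FPKM in a locus shared with Cdc23.

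A missed threshold does not show equal levels, so the intervals of the changes were read as well. For 14 of 17 mitosis genes (82.4%) the 95% interval of the change in FPKM + 1 lay within 1.5-fold in either direction, against 25.9% of all genes tested. In FPKM itself this bound is wider for low genes. The exceptions were Ccnb1, Cenpe and Ube2c. With a pseudocount of 0.1 the count was 12, and with median centring or with quantile normalization it was 11. With 1 library left out, which widens the intervals, the count was 8 without replicate 2 at 3 days, 9 without replicate 3 at either time, and 10 to 12 without the others. For the replication genes it was 7 of 9 (77.8%), all but Pcna and Rrm2, and for the G1 and S entry genes 4 of 12 (Ccne1, Cdk2, Cdk4 and Cdk6). The shares were lower among the other mitosis and replication genes counted below. There 20 of 44 mitosis genes (45.5%), 25 of 45 replication genes (55.6%) and 11 of 27 G1 and S entry genes (40.7%) met the bound.

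The centres of the changes in replication and mitosis genes were compared by their medians. The median log2 change was −0.07 over 9 replication genes, 0.04 over 17 mitosis genes and −0.02 over 12 G1 and S entry genes, and −0.04 over all genes tested. The mitosis changes ran from −0.42 to 0.22, the replication changes from −0.33 to 0.52 and the G1 and S entry changes from −1.55 to 0.66. With values quantile normalized the replication median was −0.17 and the mitosis median 0.06. Leaving out 1 library gave replication medians from −0.14 without replicate 1 at 3 days to 0.00 without replicate 2 at 3 days, and mitosis medians from −0.07 to 0.12 without the same 2 libraries, so neither sign is stable.

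**Figure D3:**
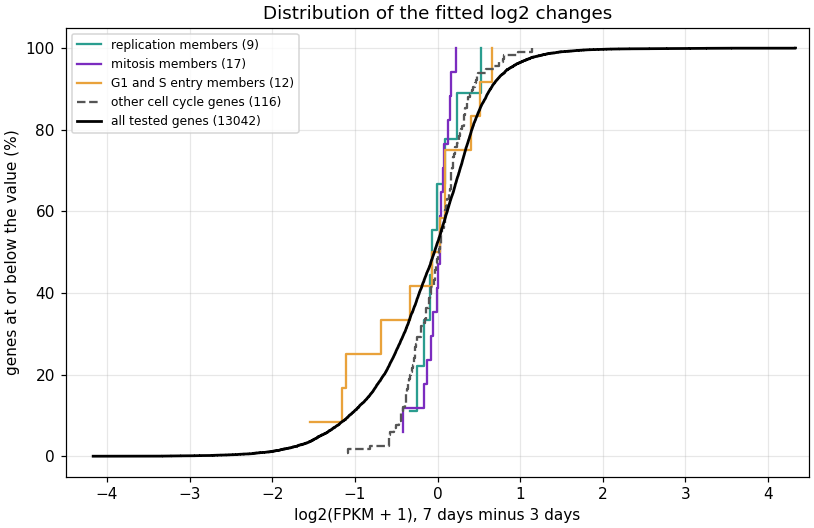
Share of genes (percent, vertical axis) at or below each fitted change of log2(FPKM + 1), 7 days minus 3 days, for the 3 role groups, the 116 other cell cycle genes tested and all 13042 genes. The replication and mitosis curves climb steeply near 0, and the G1 and S entry curve extends to −1.55.

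The libraries of a time also differed among themselves. Replicate 2 at 3 days held the highest value of the 6 libraries for 8 of 17 mitosis genes and 4 of 9 replication genes, and replicate 1 at 3 days the lowest for 8 of 17 mitosis genes. The median deviation from each gene's mean over the 6 libraries was 0.17 for mitosis genes in replicate 2 at 3 days and −0.14 in replicate 1 at 3 days, on the log2(FPKM + 1) scale, while the 7-day libraries lay between −0.07 and 0.07. The median coefficient of variation of mitosis genes was 8.59% at 7 days and 16.3% at 3 days, and that of replication genes 5.87% and 12.4%. For G1 and S entry genes it was 10.1% and 11.2%, and it was not taken over all genes tested. Replicate 2 at 3 days was also the library with the highest neural and endothelial marker sums, and the part of other cells in its values was not tested. Leaving it out kept 0 of 17 mitosis genes called and moved their median log2 change to 0.12.

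**Figure D4:**
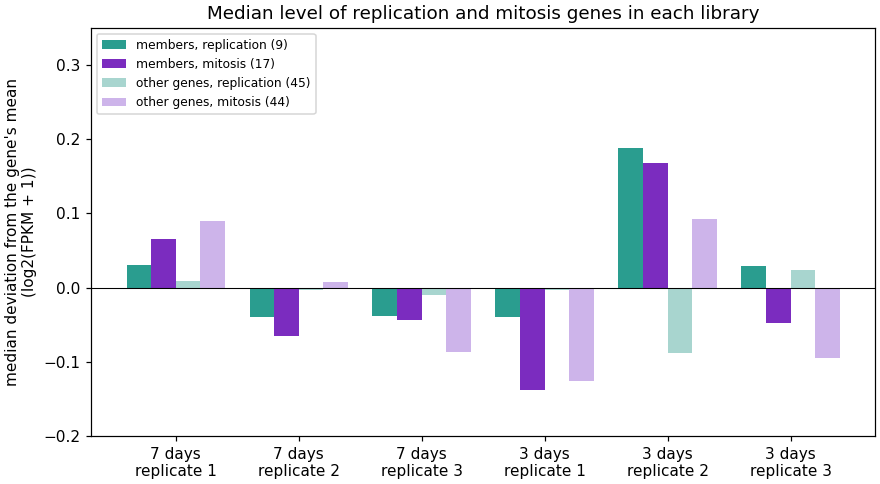
Median deviation of log2(FPKM + 1) from each gene's own mean, by library, for replication and mitosis genes of the list (dark bars) and for other replication and mitosis genes (light bars). Replicate 2 at 3 days stands highest for both dark bars (0.19 and 0.17), while the 45 other replication genes have a deviation of −0.09 there.

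Other genes of the same pathways were counted from 127 further names, of which 116 were tested. Of 45 other replication genes 4 were higher at 7 days and 3 lower, of 27 other G1 and S entry genes 5 were higher and 4 lower, and of 44 other mitosis genes 3 were higher and 2 lower. The shares called in either direction, 15.6% of the replication genes, 33.3% of the G1 and S entry genes and 11.4% of the mitosis genes among them, compare with 39.1% of all genes tested. Medians of the log2 change were 0.04, −0.04 and 0.04 for the 3 roles. Single libraries decided some of these counts. The G1 and S entry genes lower at 7 days numbered 0 without replicate 3 at either time, 1 without replicate 1 at 7 days and 2 without replicate 2 at 3 days, and those higher numbered 2 without replicate 2 at 7 days and 3 without replicates 1 or 3 at 7 days or replicate 3 at 3 days. The mitosis genes higher numbered 0 without replicate 1 at 7 days or replicate 3 at 3 days and 1 without replicate 2 at either time, and those lower numbered 1 without replicates 2 or 3 at 7 days and 0 without replicate 3 at 3 days. The replication genes lower numbered 1 without replicate 2 at either time.

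The 4 called genes with the largest change in each role were looked at further. In the replication group these were Cdc7, Rfc2, Gins4 and Rfc5. Cdc7, the kinase that fires replication origins, fell to 2.47, 2.99 and 3.93 FPKM at 7 days, against 6.89, 9.34 and 7.23 FPKM at 3 days (log2 change −1.10 ± 0.19, limma adjusted p = 0.00438). Rfc2, a subunit of the complex that loads Pcna on DNA, had 21.2, 23.9 and 24.1 FPKM at 7 days, against 10.3, 12.2 and 11.3 FPKM at 3 days, and rose by 0.98 ± 0.11 (limma adjusted p = 0.00108) in a locus shared with Lat2. Neither gene's libraries overlapped between the times. Rfc5, another subunit of that complex, rose by 0.59 ± 0.13 (limma adjusted p = 0.0117; locus shared with Wsb2), and Gins4, a part of the active helicase, by 0.68 ± 0.12 (limma adjusted p = 0.00556). The other subunits of the 2 complexes were not called, with log2 changes of 0.19 for Rfc1, 0.09 for Rfc3 and −0.33 for Rfc4, and of −0.03 for Gins1, −0.07 for Gins2 and 0.28 for Gins3. Of the 4 called genes, Rfc5 alone lost its call, with q = 0.0601 in the authors' deposited table.

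In the G1 group an atypical cyclin and a retinoblastoma-family gene rose. Ccng2, an atypical cyclin linked to cell cycle arrest, had 25.6, 27.9 and 22.7 FPKM at 7 days, against 11.1, 10.5 and 11.05 FPKM at 3 days, and rose by 1.15 ± 0.11 (limma adjusted p = 0.000653). Rbl2 (p130, the retinoblastoma-family member of the DREAM complex) had 38.3, 33.0 and 33.7 FPKM at 7 days, against 21.4, 19.8 and 20.3 FPKM at 3 days, and rose by 0.74 ± 0.10 (limma adjusted p = 0.00181) in a locus shared with Aktip. Both genes kept their calls under all 13 alternatives. Lin52, a core DREAM subunit, fell (log2 change −1.08 ± 0.32, limma adjusted p = 0.0327), a call lost under 6 of 13, and Cdkn1c (p57, a CIP/KIP inhibitor) was higher at 3.63 ± 0.560 FPKM at 7 days against 1.71 ± 0.738 FPKM at 3 days (log2 change 0.80 ± 0.22, limma adjusted p = 0.0280), a call lost under 4 of 13.

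In the mitosis group, Lmnb1, the B-type lamin of the nuclear envelope, had 26.3, 22.7 and 27.1 FPKM at 7 days, against 61.0, 34.0 and 44.5 FPKM at 3 days. It fell by 0.81 ± 0.20 on the log2 scale (limma adjusted p = 0.0175), with a wide 3-day spread and no overlap, and the call was lost without replicate 3 at 3 days or replicate 2 at 7 days. Smc4, a condensin subunit, rose by 0.49 ± 0.14 (limma adjusted p = 0.0254), and Nuf2, a kinetochore protein, by 0.42 ± 0.13 (limma adjusted p = 0.0417). Cdca2, a regulator of chromatin at mitotic exit, fell by 0.44 ± 0.14 (limma adjusted p = 0.0395). The calls of these 3 genes were lost under 5, 6 and 7 of 13 alternatives.

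The library values of Bub1b, the spindle checkpoint protein BubR1 (chromosome 2, 118598244 to 118630369), do not give the group means deposited beside them. Bub1b had 15.8, 12.3 and 15.9 FPKM at 7 days, with a mean of 14.7, against 13.2, 10.3 and 10.7 FPKM at 3 days, with a mean of 11.4. The authors' deposited table gives means of 24.3 FPKM at 7 days and 19.3 FPKM at 3 days, which are 1.65 and 1.70 times the library means and above every library. The log2 fold change in the authors' deposited table, 0.37, equals that of the library means, also 0.37, and its q-value is 0.0849. A fit that set aside only rows of repeated symbols, over 13928 genes, gave Bub1b a log2 change of 0.34 ± 0.15 (limma adjusted p = 0.109).

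Mcm3, the other gene with this mismatch, had 75.2, 69.1 and 65.2 FPKM at 7 days, against 81.6, 55.7 and 56.1 FPKM at 3 days. The means in the authors' deposited table, 92.6 and 86.5 FPKM, are 1.33 and 1.34 times the library means. In the same wider fit its log2 change was 0.13 ± 0.16 (limma adjusted p = 0.520). For the other 38 genes of the list with a row, the mean of the 3 libraries met the deposited mean to within 0.000435%. Of all rows, 838 miss by more than 1%, with the deposited mean higher at both times in 595 and lower at both in 206, and the cause was not tested.

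**Figure D5:**
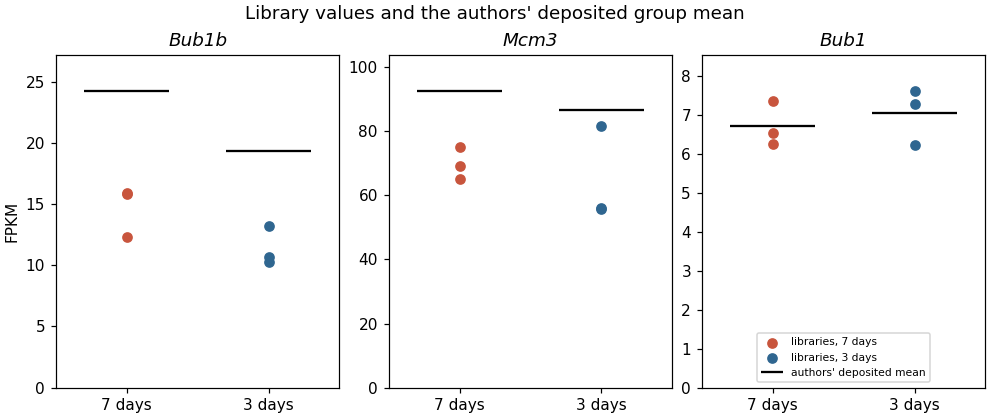
FPKM of each library (points, 7 days left, 3 days right) and the authors' deposited group mean (black line) for Bub1b, Mcm3 and, as a gene that meets its mean, Bub1. For Bub1b and Mcm3 the line lies above all 3 libraries at both times.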

How the data were processed

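RNA from RiboTag immunoprecipitates was sequenced from ScriptSeq v2 libraries, per the labels' protocols. The tools named, per the submitters' processing notes, are Cuffdiff 2.2.1, Cufflinks 2.2 and TopHat2 2.0.12, on build mm10, without their role or order. Per the file headers, the authors deposited an FPKM value per gene and library, their mean FPKM at each time, a log2 fold change, a test statistic (a score), and a p-value and q-value per gene. How libraries were scaled to each other, and whether locus starts count from 0 or 1, is not stated. Starts and ends of genes are the authors' mm10 loci, and the annotation behind them is not given in the sources used here. The filtered table was not used.

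Of 13960 rows, 918 were left out of the main test and of every alternative except the one that set aside only repeated symbols. In 838 the mean of the 3 libraries is over 1% off the deposited mean, 45 carry a status that is not OK, 32 belong to repeated symbols and 14 combine a 0 with a library of at least 100 FPKM; some meet several of these. The other 13042 genes were tested with limma 3.58.1 (R 4.3.3) on log2(FPKM + 1) with a mean-dependent prior variance, 7 days minus 3 days, two-sided, Benjamini-Hochberg adjusted over all of them. No filter on low values was used, and all 38 genes of the list with a usable row passed. A difference of log2(FPKM + 1) understates the change of low genes. The smallest p of an exact permutation test with 3 libraries a side is 0.1, and calls therefore depend on limma's pooling of variance over genes. The read depth is unknown, so no counting interval is given. The members, role groups, marker lists and wider lists were chosen with earlier results of these data known.

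Values are given in full for each called gene of the list, for Mki67, Top2a, Cdk1, Pcna, Mcm2, Ccnd1, Cdkn1a and Bub1b, and for genes next to the threshold. Of the other cell cycle genes, the text names the 4 with the largest change in each role among those called with a group mean of 1 FPKM or more. Alternatives changed the pseudocount to 0.1, kept genes with a mean of 1 FPKM or more, quantile normalized or median centred the libraries, kept all rows but those of repeated symbols, added the replicate number as a block, left out each library in turn, or read the authors' q-value. 1 marker gene is not reported here and was left out of its list.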

Additional observations from a re-analysis of the deposited data

How the results depend on the processing

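The calls of Ccnd1, Ccnd2, Ccnd3, Cdkn1a, Cdkn2c and Pcna held under all 13 alternatives, with adjusted p of at most 0.0446. Of 494 alternative values of the 38 tested genes of the list, 432 kept direction and side of the threshold, 14 lost a call, 5 gained one and 43 changed sign, the last among 17 uncalled genes whose log2 change was at most 0.17 in size. Depth is unknown, and with 3 libraries a time the intervals limit what can be told apart.

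Replication genes of the list called lower numbered 1, but 0 with median centring, 0 with the replicate block, 0 by the authors' q-value and 2 with quantile normalization, which adds Mcm6 (adjusted p = 0.00562). G1 and S entry genes called higher numbered 1 with quantile normalization, where Cdkn1b was lost (adjusted p = 0.0834). The replication median was −0.17 with quantile normalization. Among other cell cycle genes, replication genes higher numbered 2 by the authors' q-value, mitosis genes higher 5 with median centring and 1 with quantile normalization, and mitosis genes lower 1 with median centring and 5 by the authors' q-value. The cause of these moves was not tested.

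Same-numbered libraries of the 2 times did not deviate together for every number (correlations of 0.0995, 0.00545 and 0.00465 across genes), so the numbers were not read as pairs. With the replicate block 2450 genes were higher and 2425 lower over all genes, 3 and 4 of the list, Mcm7 was not called (adjusted p = 0.0508), and other replication genes called lower numbered 5.

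Leaving out 1 library gave 1572 to 2207 genes higher and 1697 to 2565 lower. It gave 1 to 2 replication genes higher and 0 to 1 lower, 1 to 2 G1 and S entry genes higher, and 0 to 1 mitosis genes lower. For other cell cycle genes it gave 1 to 3 replication genes lower, 2 to 6 G1 and S entry genes higher and 0 to 4 lower, and 0 to 2 mitosis genes higher and 0 to 2 lower. Mitosis genes with an interval within 1.5-fold, a count chosen after seeing the data, numbered 8 to 12.

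Changes of sign met uncalled genes. With median centring the log2 changes were 0.022 for Cdk4, 0.0018 for Aurka, 0.0252 for Bub1, 0.0146 for Rrm1, 0.0749 for Tk1 and 0.0754 for Kif20a. With quantile normalization they were −0.158 for Top2a, 0.0799 for Aurka, 0.0662 for Bub1, −0.204 for Birc5, 0.156 for Tk1 and 0.0265 for Kif20a, and the authors' deposited table gives 0.0006 for Tk1. Leaving out 1 library gave −0.0396 to 0.162 for Top2a, −0.0724 to 0.463 for Ccnb1, −0.0424 to 0.12 for Ccnb2, −0.0645 to 0.147 for Ccne1, −0.0721 to 0.275 for Cdk1, −0.154 to 0.0581 for Cdk4, −0.0686 to 0.244 for Cdk6, −0.204 to 0.046 for Aurka and −0.0644 to 0.088 for Birc5. It gave −0.036 to 0.204 for Cdc20, −0.139 to 0.239 for Plk1, −0.145 to 0.0013 for Mcm2, −0.163 to 0.0266 for Rrm1, −0.14 to 0.139 for Tk1, −0.107 to 0.249 for Cenpf and −0.0981 to 0.117 for Kif20a.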
